A study of Mus musculus with 4 samples.

Results

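The subject is the mouse genes whose symbols are Zfp and a number, most of which encode C2H2 zinc finger proteins. Members were all such symbols with raw counts of 200 or more summed over the 4 libraries, with Zfp42 left out by the rule, which gave 267 genes of the 24015 in the count files. The files hold 333 symbols of this form, and a further 65 fell below 200 counts. The nearest genes outside were Zfp551, Zfp808 and Zfp493 with 195, 191 and 187 counts, and the nearest inside were Zfp454, Zfp932 and Zfp442 with 200, 202 and 207. The members were chosen by their summed raw counts over all libraries, so their levels are a description. The comparison between the groups was not part of that choice, but the genes were singled out with earlier results of these data known.

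Zinc finger proteins of this family bind DNA through arrays of short finger repeats. Many carry a KRAB box, a repression domain that recruits the corepressor TRIM28 together with the histone methyltransferase SETDB1 and HP1 proteins, and in embryonic stem cells such complexes silence retroelements and guard imprints. TRIM33 belongs to the same TIF1 family as TRIM28, but it is known chiefly as a SMAD-binding chromatin ubiquitin ligase. Other numbered Zfp genes encode sequence-specific activators, SMAD cofactors or proteins that act on RNA.

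RNA came from mouse embryoid bodies harvested on day 7, in 2 Trim33-deficient and 2 Control libraries. Per the labels the embryonic stem cells came from outbred embryos with both Trim33 alleles floxed and a UbcCreERT2 transgene, a tamoxifen-inducible Cre under a broadly active ubiquitin promoter, and 4-hydroxytamoxifen given on day 4 induced the deficiency. Control libraries are labelled wild type, and whether they too held the floxed alleles and the transgene, or were given the drug, is not settled by the labels. The labels speak of 2 independent pairs without saying what a pair shares or how many cell lines were used. A p-value here sets the group difference against the spread among these libraries. How far that spread covers differences among cell lines is not known.

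The libraries held 12109547 to 13808837 counts in genes for Trim33-deficient and 10422738 to 12390541 for Control bodies, of which the members took 0.95% to 1.04% and 1.03% to 1.06%. Trim33 itself had 43.9 and 42.3 CPM (counts per 1e6 counts in genes, TMM-normalised) in Trim33-deficient bodies, against 93.0 and 109.1 CPM in Control bodies, so that 42.6% was left. Its log2 fold change was -1.23 (SE 0.13), which edgeR's quasi-likelihood test did not call (adjusted p = 0.219) and DESeq2 did (adjusted p = 6.16e-06). The floxed exons were not located here. The library that stood apart was Control replicate 1. Its Pearson correlation across genes was 0.932 to 0.952 with each other library, and the other 3 libraries had 0.967 to 0.978 among themselves. Markers of 6 visceral endoderm genes summed to 47.8 to 54.4 CPM in Trim33-deficient and 847 to 895 CPM in Control libraries, and all 6 were lower without overlap. Sums for 6 cardiac genes ran from 282 to 1402 CPM in Trim33-deficient and from 179 to 426 CPM in Control libraries and so also differed within groups. The part of these differences in the results on members was not tested.

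Translated GENCODE coding sequences were found for all 267 members. A KRAB box was recognised in 150 of them and a SCAN domain, which mediates pairing between such proteins, in 12. The median protein held 10 C2H2 fingers, and Zfp185, Zfp330, Zfp36, Zfp365, Zfp503, Zfp703, Zfp839 and Zfp935 matched the finger pattern nowhere. Per the RefSeq GRCm38 annotation, chromosome 7 carried 70 members and chromosome 17 carried 33, and 97 members lay in 12 clusters of 5 or more neighbouring members. Reads of near-identical neighbours in such arrays can be split or lost by the authors' counting, so single values for KRAB genes are uncertain to that extent.

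Upstream sequences are shown for the 4 members that reached an unadjusted p under 0.05, have a single start in the RefSeq promoter table and lie where sequence could be printed. Each is the 250 bases before the gene's start, on the gene's strand in GRCm38.p6. Capitals mark 2 motifs on either strand, CAGAC, a SMAD-binding box, and ACTACANTTCCC, which resembles a known binding sequence of the Zfp143 protein.
Zfp692, chr11:58306819-58307068, plus strand: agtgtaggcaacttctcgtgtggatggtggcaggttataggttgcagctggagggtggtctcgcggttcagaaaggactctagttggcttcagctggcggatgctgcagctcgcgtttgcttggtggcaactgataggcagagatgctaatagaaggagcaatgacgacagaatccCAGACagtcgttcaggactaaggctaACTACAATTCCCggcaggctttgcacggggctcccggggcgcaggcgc
Zfp420, chr7:29859762-29860011, plus strand: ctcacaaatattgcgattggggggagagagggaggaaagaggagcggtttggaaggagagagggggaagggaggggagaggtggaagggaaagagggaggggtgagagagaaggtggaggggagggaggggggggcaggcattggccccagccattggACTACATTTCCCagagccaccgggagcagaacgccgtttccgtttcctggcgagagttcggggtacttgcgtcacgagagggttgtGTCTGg
Zfp811, chr17:32809932-32810181, minus strand: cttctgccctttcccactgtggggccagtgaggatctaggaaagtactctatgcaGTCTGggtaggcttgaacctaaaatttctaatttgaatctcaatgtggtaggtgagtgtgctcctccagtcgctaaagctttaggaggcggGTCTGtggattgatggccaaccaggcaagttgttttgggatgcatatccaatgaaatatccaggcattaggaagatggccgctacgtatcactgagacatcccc
Zfp365, chr10:67912663-67912912, minus strand: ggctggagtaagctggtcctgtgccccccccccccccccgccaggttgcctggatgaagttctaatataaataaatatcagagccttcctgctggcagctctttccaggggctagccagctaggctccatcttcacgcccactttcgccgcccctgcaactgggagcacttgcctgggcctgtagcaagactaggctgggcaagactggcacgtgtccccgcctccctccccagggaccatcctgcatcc
The longer motif is the longest run that the Zfp692 and Zfp420 promoters share with 1 mismatch, and it was searched after these sequences were seen. The other printed promoters lack it. Over the 272 promoters listed for 219 members, the source pair included, it was present in 12.1%, against 0.871% of all 32851 promoters in the table. It was present in 17.8% for members with a KRAB box and 4.35% for those without. These sets also differ in base content. The median number of CpG sites was 13 for member promoters and 6 for all promoters, and 10 with and 17 without a KRAB box. The part of base content in the motif's share was not tested. CAGAC was present in 43.0% of member promoters and 42.2% of all promoters. A match is a run of letters and says nothing on binding in these cells. The 32 members with the longer motif, the pair it was taken from included, had a median log2 fold change of -0.11 (10 above and 22 below 0), against -0.018 for 187 members with a promoter and no motif (86 above and 101 below 0). That pair was among the members shown for an unadjusted p under 0.05, and the Control libraries also differed more for these 32 members, with a median difference of replicate 1 minus replicate 2 of -0.225 on the log2 scale, against -0.131 for the members without the motif. A KRAB box was carried by 27 of these 32 members and by 104 of the 187 without the motif. The 48 members with no promoter in the table had a median log2 fold change of -0.0155 and a median Control difference of -0.188. The part of the Control difference or of the KRAB share in the lower median was not tested. The Zfp143 gene had 32.8 and 31.5 CPM in Trim33-deficient and 35.2 and 35.0 CPM in Control bodies, with a log2 fold change of -0.13 (SE 0.13, edgeR adjusted p = 0.804).

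The comparison asks whether the family's transcripts differed between Trim33-deficient and Control bodies. No member passed the edgeR quasi-likelihood test at an adjusted p under 0.05, with 0 of 267 called against 0.014% of the 14259 genes tested. DESeq2, edgeR's likelihood ratio test and limma voom also called 0 members, where they called 0.743%, 1.19% and 0% of the genes each tested. DESeq2 tested 18567 genes and the other 2 tested 14259. At an unadjusted p under 0.05, edgeR had 2 higher and 4 lower members, 2.25% of them against 7.84% of all genes (3.06% higher and 4.78% lower). DESeq2 had 3 of the 267 members, where it had 953 of the 14259 genes and 5.26% of the 18567 that it tested. Members' log2 fold changes had a median standard error of 0.21, so differences of that size could not be resolved with 2 libraries a group. Larger ones also went uncalled by edgeR's quasi-likelihood test, such as Trim33 at -1.23 (adjusted p = 0.219) and Zfp692 at -0.84 (adjusted p = 0.485). The 0 calls therefore do not show that members were unchanged. In bulk RNA of embryoid bodies, fewer cells of a type and less RNA per cell cannot be told apart.

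Fold changes of the members were narrowly spread. They ran from -0.92 to 0.59 on the log2 scale, with a median of -0.030 and quartiles at -0.20 and 0.10. All genes tested had a median of -0.0014 with quartiles at -0.23 and 0.18. No member moved past 1 in either direction, as 6.85% of genes did, and 16 members (5.99%) moved past 0.5, as 20.8% of genes did. Among the 11648 other genes that also reached 200 counts, 4.05% moved past 1 and 15.4% past 0.5. Other zinc finger genes also had few values past these limits. Of 37 Zbtb genes 0 moved past 1 and 1 (2.70%) past 0.5, and of 18 Zscan and Zkscan genes 0 moved past 0.5. Quartiles were at -0.19 and 0.13 for the Zbtb genes. For the Zscan and Zkscan genes they were at -0.31 and 0.10, about as far apart as those of all genes.

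**Figure D1:**
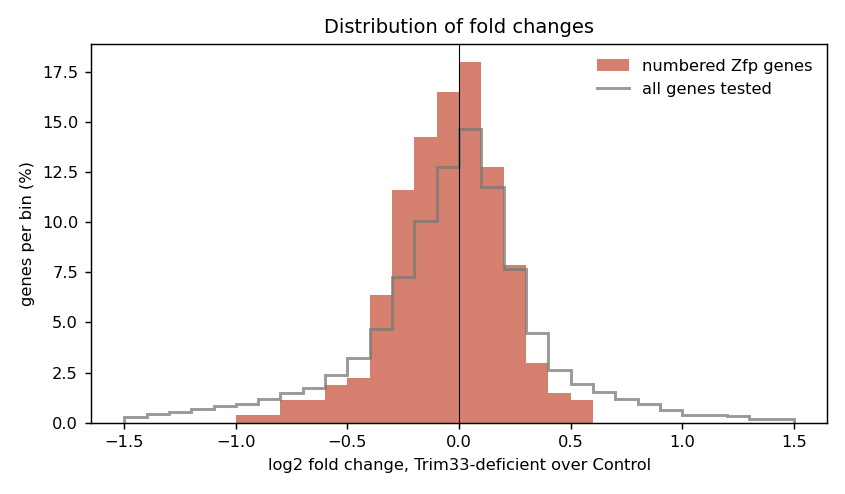
Distribution of log2 fold changes (Trim33-deficient over Control, x axis) as the percentage of genes per bin (y axis), for the 267 numbered Zfp genes (filled) and the 14259 genes tested (grey outline). The members lie between -0.92 and 0.59, while the outline has tails on both sides. Genes past 1.5 in either direction are not drawn.

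Zfp692 had the smallest p. Its human counterpart ZNF692 was described as a binding protein of the AICAR response element. It had 20.5 and 17.7 CPM in Trim33-deficient bodies (284 and 207 counts), against 34.8 and 33.5 CPM in Control bodies (450 and 343 counts). The groups did not overlap, and the Trim33-deficient mean was 55.9% of the Control mean. The log2 fold change of -0.84 (SE 0.16) was not called by edgeR's quasi-likelihood test (adjusted p = 0.485) or by DESeq2 (adjusted p = 0.106). Leaving out each library in turn gave -0.94 to -0.73.

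Lower values without overlap were also found for Zfp397, Zfp811 and Zfp420, the other lower members with unadjusted p under 0.05. Zfp397, a SCAN-domain protein, had 51.7 and 48.9 CPM in Trim33-deficient and 65.8 and 61.5 CPM in Control bodies, a log2 fold change of -0.34 (SE 0.12, edgeR adjusted p = 0.626). Zfp811, a KRAB protein with 13 fingers, had 9.52 and 9.31 CPM in Trim33-deficient and 17.1 and 12.99 CPM in Control bodies, a value of -0.68 (SE 0.25, edgeR adjusted p = 0.630). Its Control libraries stood further apart than its Trim33-deficient ones. Zfp420, with 19 fingers, had 5.27 and 4.87 CPM in Trim33-deficient and 8.19 and 8.30 CPM in Control bodies, a value of -0.70 (SE 0.26, edgeR adjusted p = 0.637).

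In the other direction, Zfp365 and Zfp37 had unadjusted p under 0.05. Zfp365, a coiled-coil protein of the centrosome studied in neurons, had 30.3 and 31.1 CPM in Trim33-deficient and 19.2 and 23.2 CPM in Control bodies. The groups did not overlap, with a fold change of 0.53 on the log2 scale (SE 0.17, edgeR adjusted p = 0.608). Zfp37, a KRAB protein with 12 fingers, had 25.2 and 27.0 CPM in Trim33-deficient and 19.5 and 18.4 CPM in Control bodies, a value of 0.46 (SE 0.17, edgeR adjusted p = 0.628). The highest fold was that of Zfp449, a SCAN-domain protein, at 0.59 (SE 0.25, edgeR adjusted p = 0.657), with 20.1 and 22.8 CPM in Trim33-deficient and 11.8 and 16.8 CPM in Control bodies. It was 0.35 without Control replicate 1.

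**Figure D2:**
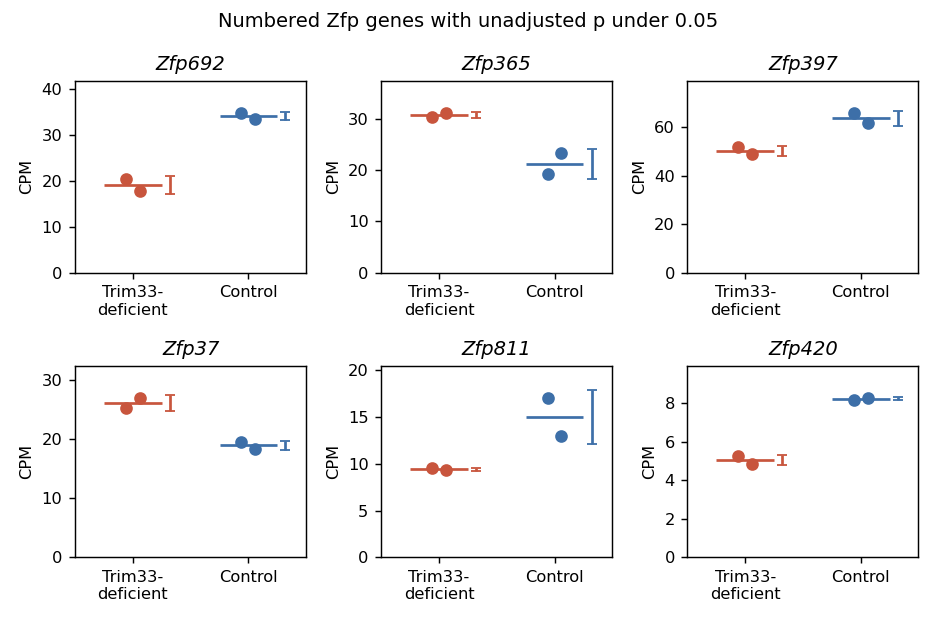
CPM (y axis, from 0) of the 6 members with an unadjusted p under 0.05 in each library, Trim33-deficient left and Control right. Points are libraries, lines are means, and bars beside them are ± 1 SD (n = 2). The groups do not overlap in any panel, with Zfp692 at 17.7 to 20.5 CPM in Trim33-deficient and 33.5 to 34.8 CPM in Control libraries.

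The lowest fold, that of Zfp473, rested on a single library. The human counterpart ZNF473 is a U7 snRNP component needed for the processing of histone transcripts. Zfp473 had 17.3 and 13.7 CPM in Trim33-deficient bodies, against 39.3 and 19.0 CPM in Control bodies. Control replicate 1 was high and the other 3 libraries were close together. Its log2 fold change of -0.92 (SE 0.39, edgeR adjusted p = 0.657) became -0.30 without Control replicate 1 and -1.34 without Control replicate 2 (-1.33 in DESeq2).

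Members whose proteins silence retroelements or keep imprints were examined by name, 6 of the 7 listed genes being members. All 6 encode KRAB proteins, 5 of them had a log2 fold change below 0 and 1 above, and 0 passed the test. The list's median of -0.22 was 0.0083 without Control replicate 2. Zfp568, which represses a placental Igf2 transcript and is needed for gastrulation, had 210.2 and 208.0 CPM in Trim33-deficient and 177.7 and 191.8 CPM in Control bodies. Its value was 0.18 (SE 0.10, edgeR adjusted p = 0.687), higher without overlap. Zfp57, which maintains imprints, had 56.3 and 74.7 CPM in Trim33-deficient and 64.6 and 96.7 CPM in Control bodies. These groups overlapped, and the value was -0.30 (SE 0.26, edgeR adjusted p = 0.767) with all libraries and 0.025 without Control replicate 2. Zfp445, which also maintains imprints, stood at -0.15 (SE 0.14), and at -0.0084 without Control replicate 2. Zfp809, which silences murine leukaemia viruses, had 10.5 and 12.98 CPM in Trim33-deficient and 15.1 and 14.3 CPM in Control bodies (-0.32, SE 0.23, edgeR adjusted p = 0.725), and its value was -0.17 without Trim33-deficient replicate 1. Zfp932 and Zfp708, which bind endogenous retroviral elements, were at -0.56 (SE 0.36) and -0.065 (SE 0.46) with 202 and 223 counts in all. Single libraries weighed heavily at these counts, with Zfp932 at -0.29 without Trim33-deficient replicate 1 and Zfp708 at 0.48 without Control replicate 2.

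The SMAD and BMP cofactors were Zfp423, which joins SMADs on BMP targets, its relative Zfp521, and Zfp451, a SUMO ligase that restrains TGF-beta transcription. All 3 had values below 0 and 0 passed the test. Zfp423 had 109.8 and 101.0 CPM in Trim33-deficient and 127.0 and 117.0 CPM in Control bodies (-0.21, SE 0.11, edgeR adjusted p = 0.678). Zfp451 had 64.6 and 66.1 CPM in Trim33-deficient and 71.0 and 81.3 CPM in Control bodies (-0.22, SE 0.13, edgeR adjusted p = 0.685), and was at -0.11 without Control replicate 2. Both were lower without overlap, as 21.4% of all genes were. Zfp521 had 63.3 and 38.0 CPM in Trim33-deficient and 58.3 and 62.0 CPM in Control bodies, a value of -0.25 (SE 0.27). Trim33-deficient replicate 2 was the low library, and without it the value was 0.077.

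Among stem cell transcription factors 5 of 7 listed genes were members, with values from -0.13 to 0.067. Zfp281, a pluripotency regulator, was at 0.067 (SE 0.19), or -0.16 without Control replicate 1, and Zfp462, a guardian of heterochromatin, at -0.039 (SE 0.11), or 0.027 without Control replicate 2. Zfp207, a spindle-assembly protein, had 265.0 and 225.0 CPM in Trim33-deficient and 237.5 and 248.3 CPM in Control bodies, and the groups overlapped. Of 9 developmental and neural regulators 6 were members, 4 above 0 and 2 below. Zfp503, a transcriptional repressor that acts in striatal and limb development, had 121.8 and 94.3 CPM in Trim33-deficient and 153.9 and 129.0 CPM in Control bodies (-0.39, SE 0.18, edgeR adjusted p = 0.663). It was lower without overlap and at -0.21 without Trim33-deficient replicate 2. Its close relative Zfp703 lay on the other side at 0.34 (SE 0.22, edgeR adjusted p = 0.718), with 107.3 and 99.7 CPM in Trim33-deficient and 65.1 and 98.8 CPM in Control bodies. The fold of Zfp703 was 0.062 without Control replicate 1.

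Chromatin and general transcription factors had 12 members of 14 listed, 8 above 0 and 4 below, from -0.33 for Zfp219 to 0.35 for Zfp827. Zfp827, which recruits NuRD, had 26.2 and 30.4 CPM in Trim33-deficient and 18.9 and 25.4 CPM in Control bodies (SE 0.22, edgeR adjusted p = 0.703). Its value was 0.15 without Control replicate 1, and that of Zfp219 was -0.11 without Trim33-deficient replicate 2. Zfp91, a ubiquitin ligase, had the smallest range of all, with 86.0 and 88.3 CPM in Trim33-deficient and 88.7 and 87.8 CPM in Control bodies. RNA, ribosome and translation factors had 7 members of 8 listed, from -0.26 for Zfp346, which binds double-stranded RNA, to 0.22 for Zfp326, a link between splicing and elongation, which was at 0.12 without Control replicate 1. Zfp36, the mRNA-decay protein tristetraprolin, was at -0.17 (SE 0.19), or 0.018 without Control replicate 1, and Zfp598, a sensor of stalled ribosomes, at -0.015 (SE 0.13). In these 2 lists, too, 0 members passed the test.

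**Figure D3:**
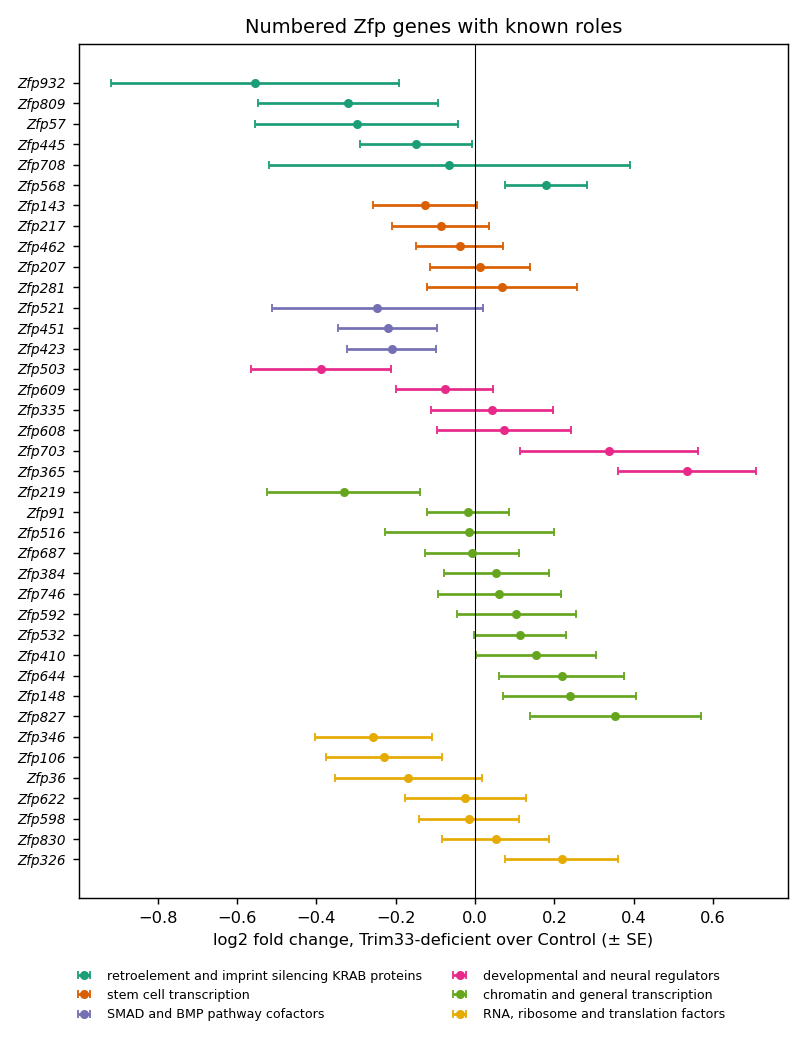
Log2 fold change (Trim33-deficient over Control, x axis) with ± 1 SE for the 39 members of the 6 role lists, one row a gene, coloured by list. Values lie between -0.56 for Zfp932 and 0.53 for Zfp365, and 0 of them passed the test.

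The corepressor machinery on which KRAB proteins act was listed by 25 symbols, of which Tasor and Fam208a name the same gene. Of these symbols 24 were tested, with 16 values above 0 and 8 below. The median was 0.033 and 0 passed the test. Trim28 had 1104 and 978 CPM in Trim33-deficient and 1039 and 1058 CPM in Control bodies (-0.010, SE 0.14, edgeR adjusted p = 0.987). The histone methyltransferase gene Setdb1 was at -0.083 (SE 0.099). In this list 2 genes had an unadjusted p under 0.05, both lower, which is 8.33% of the list against 7.84% of all genes tested. The first was the DNA methyltransferase gene Dnmt3b, with 70.9 and 64.8 CPM in Trim33-deficient and 89.6 and 84.9 CPM in Control bodies (-0.36, SE 0.12, edgeR adjusted p = 0.608). The other was the histone methyltransferase gene Ehmt2 at -0.28 (SE 0.10, edgeR adjusted p = 0.629).

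Members were also divided by the domain they carry. Members with a KRAB box had 67 values above 0 and 83 below, with a median of -0.045, and members without had 51 above and 66 below, with a median of -0.015. Both medians depended on which Control library was used, at -0.16 and -0.075 without Control replicate 1 and at 0.052 and 0.037 without Control replicate 2. The median of members without a KRAB box also moved with the Trim33-deficient libraries. It was -0.069 without Trim33-deficient replicate 1 and 0.031 without Trim33-deficient replicate 2, where members with a KRAB box had -0.054 and -0.039. The 12 SCAN members divided into 6 above and 6 below 0. The difference between these classes was not tested.

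A shift shared by most members lay between the Control libraries. In the Control bodies 195 of 267 members (73.0%) were higher in replicate 2 than in replicate 1, against 50.6% of all genes tested, with a median difference of replicate 1 minus replicate 2 of -0.14 on the log2 scale. For members with a KRAB box this was 114 of 150 and -0.18, and for members without 81 of 117 and -0.12. The shift was not particular to numbered Zfp symbols. Of 18 Zscan and Zkscan genes 13 (72.2%) were higher in Control replicate 2, with a median difference of -0.14. Of 37 Zbtb genes 20 (54%) were, with a median difference of -0.011. Median deviations of the members from the gene's own mean were 0.0095 and -0.032 in the Trim33-deficient libraries. They were -0.069 and 0.090 in the Control libraries, so both Trim33-deficient libraries lay between the Control libraries. For 160 members (59.9%) the gap between the Control libraries was larger than the difference between the groups, as it was for 57.8% of all genes. The endothelial, blood and cardiac marker sums moved the same way within Control, at 178, 2.09 and 179 CPM in replicate 1 and 406, 109 and 426 CPM in replicate 2. The neuroectoderm and pluripotency sums moved the other way, at 435 and 365 CPM in replicate 1 and 214 and 212 CPM in replicate 2. The visceral endoderm sum was 847 and 895 CPM. Their part in the family's difference was not tested.

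**Figure D4:**
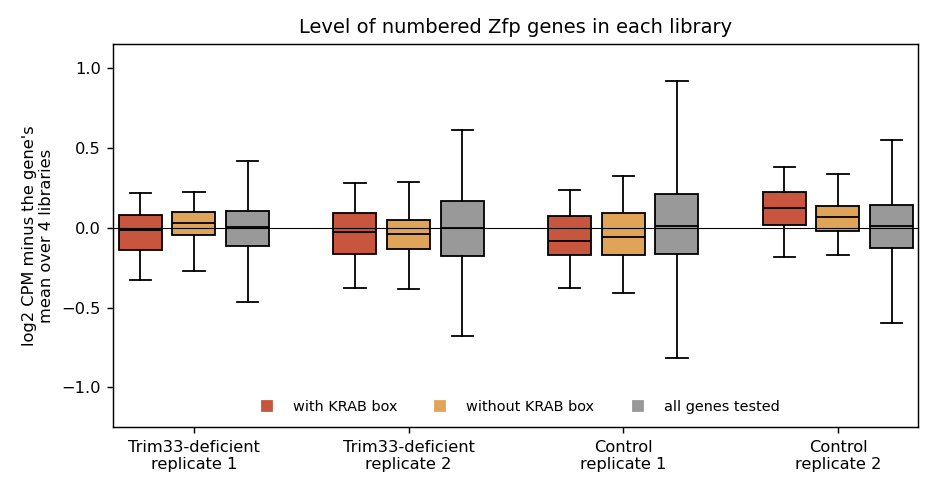
Log2 CPM minus the gene's own mean over the 4 libraries (y axis) in each library, for members with a KRAB box, members without and all genes tested. Boxes are quartiles with the median as a line and whiskers are the 5th and 95th percentiles. Members are lowest in Control replicate 1 and highest in Control replicate 2, with medians of -0.083 and 0.12 for KRAB members.

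Taken by replicate number, which the labels do not state to mark the pairs, the medians had opposite signs. In replicate 1 the members' median difference, Trim33-deficient minus Control, was 0.054, and in replicate 2 it was -0.14. Of 267 members, 54 were higher in both replicates, 88 were lower in both and 125 disagreed in direction. Of the 14259 genes tested, 4319 (30.3%) were higher in both, 4245 (29.8%) were lower in both and 5695 disagreed. By group, both Trim33-deficient libraries were above both Control libraries for 38 members (14.2%, against 19.3% of genes) and below them for 64 (24.0%, against 21.4% of genes).

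**Figure D5:**
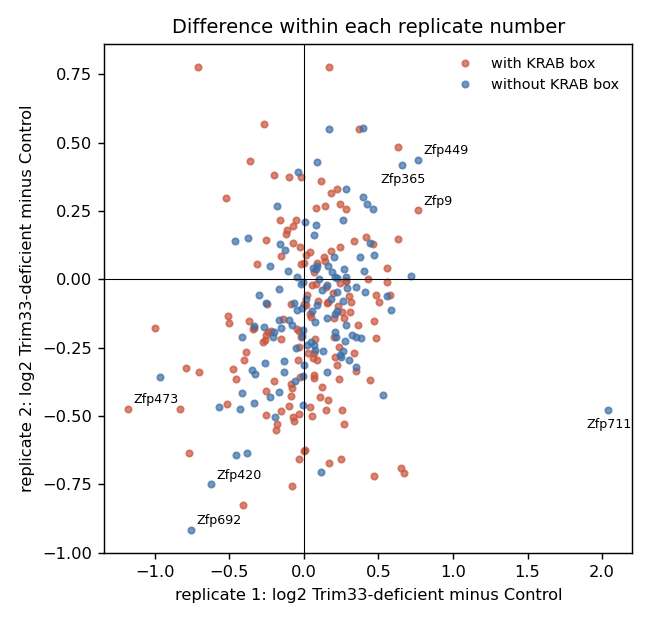
Log2 difference, Trim33-deficient minus Control, in replicate 1 (x axis) and replicate 2 (y axis) for each member, coloured by KRAB box. Most points lie below 0 on the y axis, with Zfp692 at -0.76 and -0.92 and Zfp711 far to the right at 2.04.

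The widest single range belonged to Zfp711, an X-linked gene whose protein recruits the histone demethylase PHF8. It had 19.9 and 23.0 CPM in Trim33-deficient bodies, against 4.71 and 32.03 CPM in Control bodies (61 and 328 counts). Control replicate 1 was low and Control replicate 2 the highest of all, and the log2 fold change of 0.23 had an SE of 0.85. It was -0.59 when Control replicate 1 was left out and, in DESeq2, 2.20 when Control replicate 2 was. Zfp9, a KRAB gene, was also lowest in Control replicate 1, with 26.2 and 39.1 CPM in Trim33-deficient and 15.3 and 32.8 CPM in Control bodies. Both genes were singled out for their range after the values were seen.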

How the data were processed

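Gene counts were deposited by the authors as raw whole-number counts per gene and library, with 2 Trim33-deficient and 2 Control libraries. Per the submitters' processing notes the tools were STAR, HTSeq and DESeq and the build mm9, with no versions or roles. Strand use in counting is not given in the sources. Rows that name no gene (no-feature reads were 55.5% to 56.0% of counts in Trim33-deficient and 55.8% to 55.9% in Control libraries) stayed out of library sizes and tests. The authors' deposited table of 84 genes holds 0 members.

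The groups were compared with edgeR 4.0.16 (R 4.3.3) on the counts as deposited, after filterByExpr and TMM scaling, with the quasi-likelihood F-test and Benjamini-Hochberg adjustment over 14259 genes, called at an adjusted p under 0.05. Fold changes are Trim33-deficient over Control, and each standard error was obtained as the log2 fold change over the root of the F statistic. The tests were tested on simulated data. All 267 members passed the filter. Alternatives were DESeq2 1.42.0 size factors and test, total counts, no filter and a filter of 1 CPM in all libraries, the likelihood ratio test, limma 3.58.1 voom, a replicate block, leaving out each library, and count sums of 100 or 400. Precision is limited by 2 libraries a group.

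The labels mention pairs but do not tie replicate numbers to them, so the main test has no block. Replicates of a group differed by far more than sampling noise (chi-square per degree of freedom 37.9 for Control and 25.8 for Trim33-deficient libraries).

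Chromosomes and promoters came from RefSeq (265 members matched by symbol and 2 by synonym). KRAB and SCAN domains were found in translated GENCODE coding sequences with pyhmmer 0.12.3 at an E-value of 0.001 or less, from profiles of 118 and 4 windows, and fingers by the C2H2 spacing pattern. Clusters allowed at most 3 other protein-coding genes between neighbours. Genes with zinc finger symbols, vomeronasal receptor (Vmn) symbols or provisional symbols such as Gm and Rik were not counted among these. The members and lists were chosen with earlier results of these data known. Genes to name were taken from the 12 smallest p in each direction, the 6 largest count sums, the 3 nearest the count threshold on either side and the role lists, and not all are printed. Promoter motifs were searched on both strands of the 250 bases before each start.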

Additional observations from a re-analysis of the deposited data

How the results depend on the processing

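With all 4 libraries, 0 members were called by edgeR's quasi-likelihood and likelihood ratio tests, DESeq2, limma voom or the fit with replicates as blocks. Trim33 itself was called by DESeq2 and the likelihood ratio test but not by the quasi-likelihood test. Fits that leave out a library have a single library in one of the groups, so only their fold changes are given. In DESeq2 without Control replicate 2, Zfp473 was at -1.33. The members' median log2 fold change of -0.030 was -0.018 with the replicate block, -0.070 with total counts, which moved the median of all genes to -0.042, and -0.022 with DESeq2 size factors. Leaving out one library gave -0.11 to 0.051 for all members, -0.16 to 0.052 for members with a KRAB box, -0.075 to 0.037 for those without and -0.028 to 0.073 for the corepressor list. Of 267 members, 85 were above 0 without Control replicate 1 and 153 without Control replicate 2. Of 60 named members, 38 kept their sign in all 16 alternatives and 22 did not. The 38 include every member named for one of the smallest p in its direction, a choice made on these same data. All 22 that changed sign had been named on other grounds, so the 38 do not measure how stable members are in general. The replicate block changed no call. Deviations from the group means correlated between same-numbered libraries with a Pearson's r of 0.236 across genes, but no label says that a number marks a pair. With 2 libraries a group, values of single members are imprecise.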

Other observations

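In the chromosome 9 cluster of Zfp26, Zfp266, Zfp426, Zfp560 and Zfp846, 5 of 5 members had log2 fold changes above 0 with a median of 0.13, but the median was -0.030 without Control replicate 1. In the chromosome 13 cluster of 9 members that includes Zfp58 and Zfp595, 7 were below 0 with a median of -0.12, but the median was 0.15 without Control replicate 2. In both clusters the median difference of Control replicate 1 minus replicate 2 was -0.33. The clusters were picked after their values were seen and were given no test. Members inside clusters had a median of -0.038 and those outside -0.027.

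By finger number, the median was -0.025 for 55 members with up to 5 fingers, -0.014 for 129 with 6 to 12 and -0.046 for 83 with 13 or more. Without Control replicate 1 these medians were -0.084, -0.088 and -0.18, and without Control replicate 2 they were -0.020, 0.051 and 0.097, so the order of the classes depended on the library left out.

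Zinc finger genes under other symbols were counted too, with no test of a difference from the members. The 37 Zbtb genes, which pair fingers with a BTB domain, had 19 values above 0 and 18 below with a median of 0.017. The 18 Zscan and Zkscan genes had 9 above and 9 below with a median of -0.031. Of these 18, 9 were lower in Trim33-deficient bodies without overlap and 2 (11.1%) higher, against 24.0% and 14.2% of the members and 21.4% and 19.3% of all genes tested.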
